A study of Mus musculus with 6 samples.

Results

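The genes described here are a list of core astrocyte identity genes, chosen by symbol. The rule uses no measured value, but earlier results of these data were known when the list was made. Of 49 symbols listed, 44 were found in the deposited gene table, 1 row each, and all 44 had at least 1 read in each of the 6 samples, so that none was lost to the filter on low counts that left 22337 of 45777 genes for testing. The symbols Slco1c2, Ppp1r3c2, Lcat2, Timp4b and Gjb6b matched no row. The RNA came from brain cells of male Aldh1l1-CreERT2; Rosa26-tdTomato fl/fl mice on a C57BL/6 background, in which Aldh1l1 regulatory sequence drives the Cre recombinase and tamoxifen, given to both groups, switches on red tdTomato fluorescence in the cells that make it. The STZ group received 1 intraperitoneal injection of streptozotocin (STZ), which kills pancreatic beta cells, at 8 weeks of age and was selected for high blood glucose, while the vehicle group received sodium citrate buffer. Brains were taken after 21 days, tdTomato-positive cells were sorted, and each sample pooled the cells of 3 mice, with 3 samples in each group. The samples are labelled as wild type, astrocytes, and normoglycemic or hyperglycemic.

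Astrocytes are the glial cells that take up transmitters and potassium, supply neurons with metabolites and contact the blood vessels with their endfeet. Their precursors acquire this identity under the transcription factors Sox9 and nuclear factor I (Nfia, Nfib, Nfix), and mature astrocytes then express a characteristic set of enzymes of folate, amino acid and lipid metabolism, solute carriers, cell surface receptors and secreted matrix proteins. Genes of this kind are used to recognise astrocytes in mixed tissue. The 44 genes were grouped by role into 7 transcription factors, 10 receptors, channels and junction proteins, 4 carriers, 11 metabolic enzymes, 6 secreted and matrix proteins and 6 other intracellular and membrane proteins.

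Because 3 of the listed regulators are nuclear factor I proteins and 2 are SOX proteins, the sequence before the start sites of the listed genes was searched for their short recognition letters. RefSeq promoter sequences (GRCm38.p6) were available for 37 of the 44 genes, in 54 windows of 250 bases. Shown are a window of Mgst1, which held the most TTGGCA matches, and those of Ncan, Id4 and Aldh1l1. Ncan and Id4 had the lowest fold change and the smallest p-value of the list, respectively, and Aldh1l1 is the gene used for the sort. Each window is written 5′ to 3′ on the strand of the gene and ends at the base before the start site. Capitals mark the letters TTGGCA, part of a nuclear factor I site, and the letters TATAAA of a TATA box, on either strand.
Mgst1, chr6:138140277-138140526, plus strand: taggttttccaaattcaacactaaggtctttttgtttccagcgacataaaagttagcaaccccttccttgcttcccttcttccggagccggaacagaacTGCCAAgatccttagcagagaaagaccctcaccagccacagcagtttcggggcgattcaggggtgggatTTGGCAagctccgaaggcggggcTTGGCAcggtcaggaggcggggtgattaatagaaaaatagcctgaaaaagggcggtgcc
Ncan, chr8:70120845-70121094, minus strand: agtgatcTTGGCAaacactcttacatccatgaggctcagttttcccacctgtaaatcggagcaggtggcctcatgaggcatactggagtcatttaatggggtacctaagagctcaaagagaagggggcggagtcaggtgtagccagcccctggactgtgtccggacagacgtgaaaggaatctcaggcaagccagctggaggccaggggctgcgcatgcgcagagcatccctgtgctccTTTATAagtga
Id4, chr13:48260866-48261115, plus strand: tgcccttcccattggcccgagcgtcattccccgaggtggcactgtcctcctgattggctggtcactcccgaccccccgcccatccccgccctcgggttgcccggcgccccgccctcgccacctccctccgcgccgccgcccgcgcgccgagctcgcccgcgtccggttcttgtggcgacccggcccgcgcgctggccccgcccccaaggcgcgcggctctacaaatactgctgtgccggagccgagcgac
Aldh1l1, chr6:90550543-90550792, plus strand: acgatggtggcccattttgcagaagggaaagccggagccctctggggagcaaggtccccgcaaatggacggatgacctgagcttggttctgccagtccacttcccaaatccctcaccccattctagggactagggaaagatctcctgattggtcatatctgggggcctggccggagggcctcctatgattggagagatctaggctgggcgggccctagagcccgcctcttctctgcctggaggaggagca
The Mgst1 window shown held 3 TTGGCA matches, starting 151, 82 and 59 bases before the start site. Another Mgst1 window, chr6:138141337-138141586, held none of the letters searched. The Ncan window held 1 TTGGCA match 243 bases before the start site and a TATA box in reverse letters 11 bases before it. Start sites here are those of the promoter sequences, which can differ from the gene limits given below. The Ncan window reaches into the gene, whose limit on that side is 70120863, and its TATA letters lie inside this limit. The Aldh1l1 window likewise reaches past the gene limit at 90550768. The Id4 and Aldh1l1 windows held none of the letters searched. Over all 54 windows, 11 held TTGGCA on either strand (20.4%), against 12.3% of the 32851 promoters of the same length. These 11 windows belonged to 9 genes, which were Daam2, Etnppl, Fam107a, Mgst1, Ncan, Paqr6, Phkg1, S100b and Slc15a2. The SOX letters ACAAAG were in 8 windows (14.8%, against 16.5% of all promoters) and ACAATG in 2 (3.7% against 10.7%), and TATAAA was in 3 (5.56% against 12.4%), with no overlap between motifs. The median GC content of the windows was 58.4%, against 52.4% of all promoters. Windows of the same gene can overlap, as for Daam2 and Fam107a. The same TTGGCA site of each of these genes was counted in each of its overlapping windows, as was the ACAAAG site of Fam107a. The matches describe letters in a window and were not tested.

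The listed genes were among the most abundant transcripts of the sorted cells. Levels between genes are given as TPM, which scales reads to transcript length and to the size of the library, as the mean ± SD over all 6 samples. Of the 44 genes, 15 were in the top 1% of the 22337 tested genes (223 genes, at or above 546 TPM), 31 in the top 5% (148 TPM), 35 in the top 10% (81.0 TPM) and all 44 in the top 50% (5.57 TPM). The median level was 314 TPM, against 5.56 TPM over all tested genes, and the median rank was 441. Together the listed genes held 5.47%, 4.85% and 4.94% of the reads in the vehicle samples and 4.66%, 4.96% and 4.65% in the STZ samples. Vehicle sample 1 had the highest share, and the other 5 samples lay close to each other, between 4.65% and 4.96%.

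The secreted and matrix proteins had the highest levels of the 6 role groups, with a median of 3279 TPM. Mfge8, a secreted glycoprotein that bridges phosphatidylserine on dying cells to phagocytes, was the most abundant gene of the list at 6098 ± 974 TPM (rank 7). The orphan receptor Gpr37l1 followed at 4906 ± 545 TPM (rank 9), and then carboxypeptidase E (Cpe) at 4621 ± 341 TPM (rank 14), the serine protease Htra1 at 4570 ± 164 TPM (rank 15) and the lipid phosphate phosphatase Plpp3 at 3549 ± 505 TPM (rank 20). Cpe and Htra1 differed by less than the SD of either gene. The transcription factors were lower, with a median of 68.9 TPM. Among them Sox9 had the highest level, 419 ± 25.6 TPM (rank 298), followed by Id4 at 373 ± 60.5 TPM and Sox2 at 251 ± 24.8 TPM, while Nfix (68.9 ± 3.50 TPM), Nfib (57.4 ± 4.21 TPM), Nfia (30.1 ± 2.89 TPM) and the nuclear receptor Rorb (29.1 ± 5.67 TPM) were the least abundant. Nfia and Rorb differed by less than the SD of either gene. The lowest genes of the list were the NMDA receptor subunit Grin3a at 8.34 ± 1.92 TPM (rank 9761), the acyl-CoA synthetase Acsf2 at 11.3 ± 1.36 TPM (rank 8600) and the cationic amino acid carrier Slc7a2 at 24.7 ± 2.79 TPM (rank 5743). Of the markers most used to recognise astrocytes, Aldh1l1, an enzyme of folate metabolism, stood at 312 ± 34.8 TPM (rank 445), and S100b, a calcium-binding protein, at 183 ± 26.8 TPM (rank 874).

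**Figure D1:**
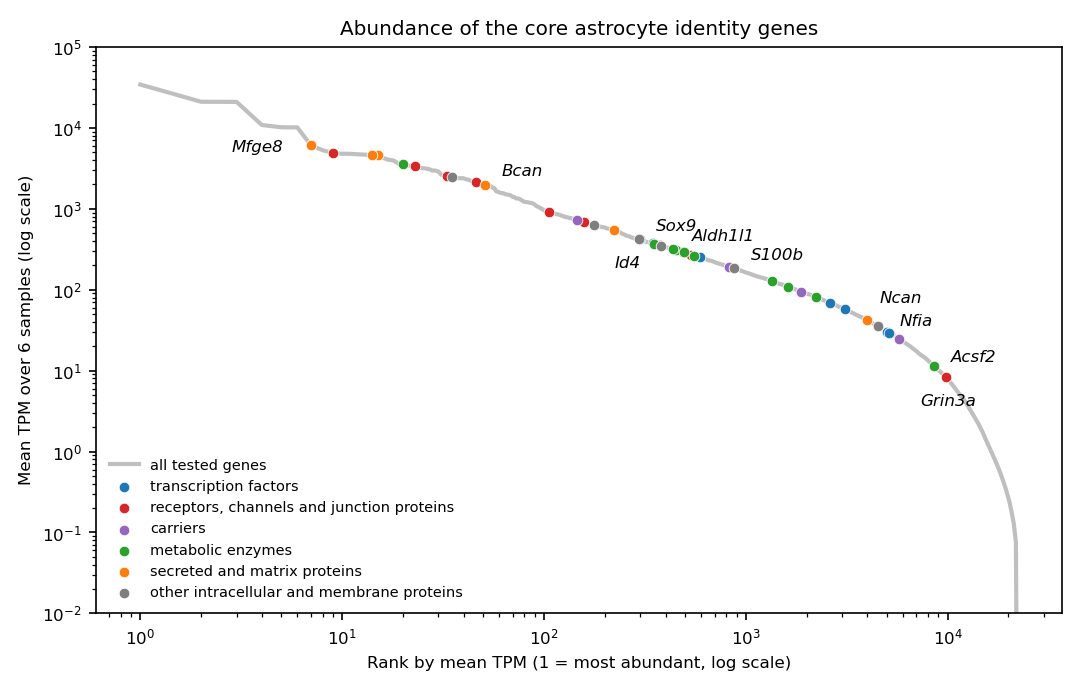
Mean TPM over 6 samples (log scale) against rank by mean TPM (log scale, 1 = most abundant) for the 22337 tested genes (grey line) and the 44 listed genes (points, coloured by role). The listed genes lie between rank 7 (Mfge8) and rank 9761 (Grin3a), with 35 of 44 in the top 10%.

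Some listed genes share genomic sequence with a neighbour, and whether reads were counted by strand is not given in the sources used here. Reads of such neighbours may then be mixed. Of the 44 genes, 20 overlap another annotated gene, and for 5 of them the neighbour's own read count was over 5% of that of the listed gene. Nfia overlaps the long noncoding RNA genes Gm19417, whose read count was 73.9% of that of Nfia, and E130114P18Rik (20.4%). For Nfib the same ratio was 61.5% (2310067E19Rik), for Phkg1 45.3% (Sumf2), for Sox2 20.4% (Sox2ot) and for Tlcd1 17.4% (Rpl23a). The levels of these 5 genes are therefore uncertain. Cyp4f14 and Cyp4f15 are paralogs on chromosome 17, whose reads may be split between them.

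The comparison of STZ with vehicle asked whether the identity genes of the astrocytes differed after the induction of high blood glucose. None of the 44 genes differed by over 1.5-fold with an adjusted p under 0.05, the threshold for a call (edgeR quasi-likelihood test, two-sided, with Benjamini-Hochberg adjustment over all tested genes), and 0.0224% of all tested genes did (5 genes). The lowest adjusted p of the list was 0.209, for Id4. At an unadjusted p under 0.05 in edgeR, 13 of the 44 genes were lower in STZ, where 5.65% of all tested genes were, and 5 were higher, where 5.63% were. With 1 sample left out the 13 became 8 without vehicle sample 1, 7 without STZ sample 1 and 7 without STZ sample 3, and the 5 became 3 without vehicle sample 2, vehicle sample 3 or STZ sample 1. All 3 STZ values lay below all 3 vehicle values for 16 listed genes (9.85% of all tested genes) and above them for 3 (8.64% of all tested genes). The differences were small, with 1 of the 44 genes, Etnppl, over 1.5-fold. The log2 fold change was negative for 33 of 44 genes (75%, against 48.1% of all tested genes), with a median of -0.10 against 0.01. DESeq2 also called none of the 44 genes at that threshold, while it called 1.05% of all tested genes. Without the fold threshold, DESeq2 gave an adjusted p under 0.05 to 2 genes that were higher in STZ (Id4, 0.00717, and Cbs, 0.0424; 0.819% of all tested genes) and to 3 that were lower (Btbd17, 0.0113, Grin3a, 0.0334, and Ncan, 0.0413; 0.895% of all tested genes).

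**Figure D2:**
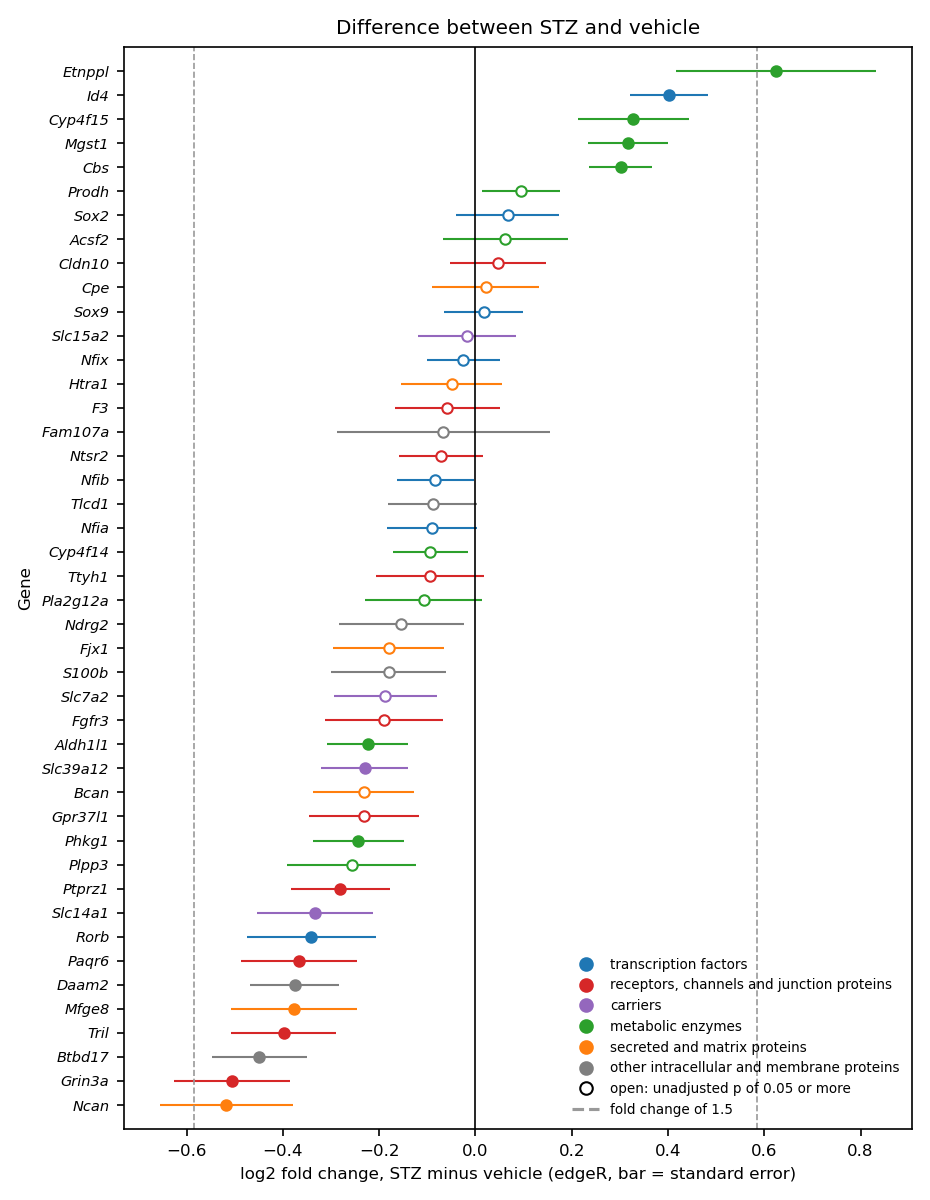
Log2 fold change of each listed gene (STZ minus vehicle, edgeR, 3 samples per group) with its standard error, coloured by role. Filled points have an unadjusted p under 0.05, open points do not, and dashed lines mark a 1.5-fold difference. The values run from -0.52 (Ncan) to 0.62 (Etnppl), and 33 of 44 lie below 0.

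In the following, values between samples are in CPM, read counts scaled to the size of the library with TMM factors, in the order of samples 1, 2 and 3, and each p is that of edgeR. Among the transcription factors, Id4, a helix-loop-helix protein that lacks a DNA-binding region and blocks partners that have one, stood apart from the rest. Id4 (chromosome 13, 48261116 to 48266028) had 604, 588 and 567 CPM in vehicle and 722, 802 and 800.2 CPM in STZ. Every STZ sample was above every vehicle sample, and the log2 fold change was 0.40 ± 0.08 (SE), with an unadjusted p of 0.00125 and an adjusted p of 0.209. The retinoid-related orphan receptor Rorb was the other transcription factor with an unadjusted p under 0.05, with 164, 124 and 127 CPM in vehicle against 95.2, 122 and 110.5 CPM in STZ (log2 fold change -0.34 ± 0.13, adjusted p = 0.413). Its groups did not overlap, but vehicle samples 2 and 3 lay close to STZ sample 2. The 5 other factors showed smaller differences between overlapping groups. Sox9 had a log2 fold change of 0.02 ± 0.08, Sox2 of 0.07 ± 0.11, Nfix of -0.02 ± 0.08, Nfib of -0.08 ± 0.08 and Nfia of -0.09 ± 0.09. Sox9, the regulator used as a nuclear marker of astrocytes, ranged from 745 to 839 CPM in vehicle and from 769.6 to 821 CPM in STZ.

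Of the 10 receptors, channels and junction proteins, 9 had a negative log2 fold change. At an unadjusted p under 0.05, 4 were lower in STZ (5.65% of all tested genes) and 0 were higher. The groups did not overlap for 6, all lower in STZ (9.85% of all tested genes). The median log2 fold change was -0.21. Grin3a (chromosome 4, 49661611 to 49846023) had 39.2, 30.1 and 31.9 CPM in vehicle and 23.7, 21.9 and 25.8 CPM in STZ, a log2 fold change of -0.51 ± 0.12 with an unadjusted p of 0.00344 and an adjusted p of 0.271. The STZ samples were all below the vehicle samples. Tril (chromosome 6, 53815468 to 53820825), a leucine-rich membrane protein that interacts with Toll-like receptors, had 1137, 913 and 938 CPM in vehicle and 775, 786 and 706 CPM in STZ (-0.40 ± 0.11, unadjusted p = 0.00693, adjusted p = 0.301). Its groups did not overlap either, and vehicle sample 1 was the highest. Paqr6 (chromosome 3, 88364072 to 88368541), of the progestin and adipoQ receptor family, had 299.7, 241 and 231 CPM in vehicle and 219, 198 and 181 CPM in STZ (-0.37 ± 0.12, unadjusted p = 0.0169, adjusted p = 0.349). Its lowest vehicle sample was just above its highest STZ sample. The receptor tyrosine phosphatase Ptprz1 was the remaining gene of the group with an unadjusted p under 0.05 (-0.28 ± 0.10, adjusted p = 0.396). The groups of Gpr37l1 (-0.23 ± 0.11) and of the neurotensin receptor Ntsr2 (-0.07 ± 0.09) did not overlap but had adjusted p-values of 0.492 and 0.795. The fibroblast growth factor receptor Fgfr3 (-0.19 ± 0.12), the channel protein Ttyh1 (-0.09 ± 0.11), tissue factor F3 (-0.06 ± 0.11) and the tight junction protein Cldn10 (0.05 ± 0.10) had overlapping groups.

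All 4 carriers had negative log2 fold changes, and 2 had an unadjusted p under 0.05 (5.65% of all tested genes were lower at that p). The urea transporter Slc14a1 had 215, 161 and 161 CPM in vehicle and 137, 147 and 142 CPM in STZ (-0.33 ± 0.12, adjusted p = 0.389). The zinc transporter Slc39a12 had 1048, 899.6 and 970.4 CPM in vehicle and 787, 849 and 852 CPM in STZ (-0.23 ± 0.09, adjusted p = 0.408). The groups of both genes did not overlap. The amino acid carrier Slc7a2 (-0.19 ± 0.11) and the peptide carrier Slc15a2 (-0.02 ± 0.10) had overlapping groups, and for all 4 carriers STZ sample 1 was the lowest of the 6 samples.

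The metabolic enzymes had values on both sides, with 6 positive and 5 negative log2 fold changes. Of 11 enzymes, 6 had an unadjusted p under 0.05, with 4 higher and 2 lower in STZ (5.63% and 5.65% of all tested genes). The median log2 fold change of the enzymes was 0.06. Cbs (chromosome 17, 31612623 to 31637233), which makes cystathionine from homocysteine and serine, had 326, 314 and 307 CPM in vehicle and 394, 389 and 384 CPM in STZ. The replicates of each group lay closer together than the groups, with SDs of 9.50 CPM in vehicle and 4.80 CPM in STZ. Its log2 fold change was 0.30 ± 0.07, with an unadjusted p of 0.00216 and an adjusted p of 0.247. Mgst1 (chromosome 6, 138140527 to 138156755), a membrane-bound glutathione transferase, had 129, 113 and 132 CPM in vehicle and 163, 156 and 147 CPM in STZ (0.32 ± 0.08, unadjusted p = 0.00577, adjusted p = 0.298). All STZ samples were above all vehicle samples. Etnppl (chromosome 3, 130617448 to 130635750), the lyase that breaks down phosphoethanolamine, had 319, 213 and 237 CPM in vehicle and 483, 409 and 294 CPM in STZ. Its log2 fold change, 0.62 ± 0.21, was the highest of the list (unadjusted p = 0.0184, adjusted p = 0.356), but STZ sample 3 was below vehicle sample 1 and its spread between replicates, 0.33 on the log2 scale, was second only to that of Fam107a (0.36). The fatty acid hydroxylase Cyp4f15 had a log2 fold change of 0.33 ± 0.12 (adjusted p = 0.377) with overlapping groups, and its paralog Cyp4f14 one of -0.09 ± 0.08. The difference between the paralogs was not tested.

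Aldh1l1 (chromosome 6, 90550768 to 90599171), whose regulatory sequence drives the Cre recombinase of the sort, had 516, 465 and 472 CPM in vehicle and 434, 427 and 384 CPM in STZ. The STZ samples were all lower, with a log2 fold change of -0.22 ± 0.08, an unadjusted p of 0.0296 and an adjusted p of 0.398. In RNA of a sorted pool, fewer cells of a type and less of a transcript per cell cannot be told apart. Phkg1, the catalytic subunit of phosphorylase kinase, had a log2 fold change of -0.24 ± 0.09 (adjusted p = 0.407) with overlapping groups. Plpp3 had 6338, 5137 and 5390.3 CPM in vehicle and 4212, 5033 and 4862 CPM in STZ. Its groups did not overlap, and the log2 fold change was -0.26 ± 0.13 with an adjusted p of 0.509. Pla2g12a (-0.11 ± 0.12), a phospholipase, Acsf2 (0.06 ± 0.13) and the proline dehydrogenase Prodh (0.09 ± 0.08) had overlapping groups.

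The secreted and matrix proteins had a median log2 fold change of -0.21. At an unadjusted p under 0.05, 2 of 6 genes were lower in STZ (5.65% of all tested genes). The groups did not overlap for 3, all lower in STZ (9.85% of all tested genes). Ncan (chromosome 8, 70093085 to 70120863), the core protein of the chondroitin sulfate proteoglycan neurocan, had 194, 160.4 and 136 CPM in vehicle and 109, 127 and 106 CPM in STZ. This was the lowest log2 fold change of the list, -0.52 ± 0.14, with an unadjusted p of 0.00621 and an adjusted p of 0.301. The groups did not overlap, with STZ sample 2 just below vehicle sample 3. Mfge8 (chromosome 7, 79133768 to 79149060) had 6704, 6166 and 6361 CPM in vehicle and 4227, 5365 and 5213 CPM in STZ (-0.38 ± 0.13, unadjusted p = 0.0221, adjusted p = 0.371). STZ sample 1 was the lowest of the 6 samples. The related proteoglycan brevican (Bcan) had 3744, 3215 and 3237 CPM in vehicle and 2861, 2889 and 2931 CPM in STZ (-0.23 ± 0.10, unadjusted p = 0.0600, adjusted p = 0.465). The groups did not overlap, and the 3 STZ values lay close together. Fjx1 (-0.18 ± 0.12), Htra1 (-0.05 ± 0.11) and Cpe (0.02 ± 0.11) had overlapping groups.

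All 6 of the other intracellular and membrane proteins had negative log2 fold changes. An unadjusted p under 0.05 was found for 2 of them (5.65% of all tested genes were lower at that p). Btbd17 (chromosome 11, 114790669 to 114801916), which has a BTB domain, had 752, 718 and 744 CPM in vehicle and 479, 538 and 605 CPM in STZ. The STZ samples were all lower, with a log2 fold change of -0.45 ± 0.10, an unadjusted p of 0.00228 and an adjusted p of 0.249. Daam2 (chromosome 17, 49456022 to 49564459), a formin of Wnt signalling, had 114, 114 and 106 CPM in vehicle and 92.2, 90.1 and 75.1 CPM in STZ (-0.38 ± 0.09, unadjusted p = 0.00413, adjusted p = 0.282). The groups of S100b (-0.18 ± 0.12), Ndrg2 (-0.15 ± 0.13), Tlcd1 (-0.09 ± 0.09) and Fam107a (-0.07 ± 0.22) overlapped. Fam107a had the widest spread between replicates of all listed genes, with 692, 373 and 515 CPM in vehicle and 599.6, 449 and 459 CPM in STZ.

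**Figure D3:**
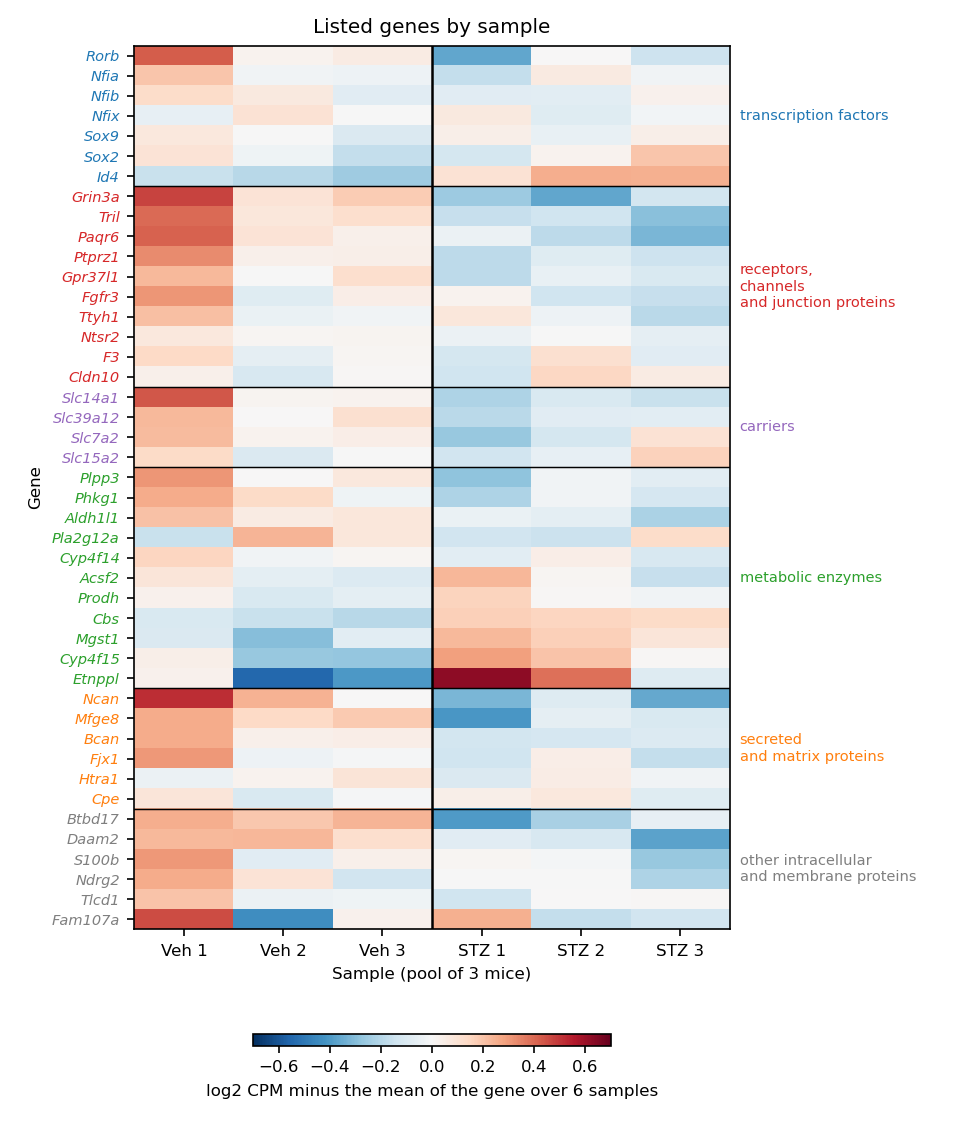
Log2 CPM of each of the 44 listed genes (rows, ordered by role and fold change) in each of the 6 samples (columns), minus the mean of the gene over the 6 samples. Red is above and blue below the mean. Vehicle sample 1 was the highest sample for 30 of the 44 genes, and STZ sample 1 the lowest for 17.

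The median SD of the listed genes within groups was 0.12 on the log2 scale, against 0.21 over all tested genes, and many of them deviated in the same direction in a given sample. Vehicle sample 1 was the highest of the 6 samples for 30 of 44 genes (68.2%, against 22.8% of all tested genes). Over the 44 genes, the median deviation from the mean of the gene was 0.21 in vehicle sample 1, 0.00 and 0.01 in vehicle samples 2 and 3, and -0.11, -0.03 and -0.09 in the STZ samples. Vehicle samples 2 and 3 lay closer to the STZ samples than to vehicle sample 1. Without vehicle sample 1, the median log2 fold change of the list was -0.06, against -0.10 with all samples, and 31 of 44 values were negative. Of the 18 genes with an unadjusted p under 0.05, 8 kept it with each of the 6 samples left out in turn in edgeR, which were Btbd17, Cbs, Daam2, Grin3a, Id4, Mgst1, Ncan and Tril.

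All 8 defining astrocyte markers checked (Aldh1l1, Aqp4, Slc1a2, Slc1a3, Aldoc, Gja1, Sox9 and S100b) were at 149 TPM or more in every sample. Transcripts of other cell types were also present, and no list of markers was at 0. The summed level of 15 endothelial markers was 94.5, 133 and 313 TPM in the vehicle samples and 603, 448.5 and 319 TPM in the STZ samples. All 15 had a positive log2 fold change (13 with an unadjusted p under 0.05 in edgeR, 0 called, median 1.14). Of all tested genes, 5.63% were higher at that p. The groups of the sum did not overlap, but those of some markers did. Cldn5 had 74.9 TPM in vehicle sample 3 and 61.7 TPM in STZ sample 3. The groups of Ly6c1 did not overlap, with 106 TPM in vehicle sample 3 and 129 TPM in STZ sample 3. Of 8 pericyte and smooth muscle markers, 7 had a positive log2 fold change (4 with an unadjusted p under 0.05 in edgeR, 0 called, median 0.945), with sums from 88.1 to 131 TPM in vehicle and from 126 to 175 TPM in STZ. The sum of 10 choroid plexus and ependymal markers, nearly all of it Ttr, was 10610.1, 28657 and 29997 TPM in vehicle and 20089, 16210.4 and 27039 TPM in STZ, lowest in vehicle sample 1. The sums of microglial markers (1038 to 1514 TPM in vehicle, 1021 to 1439 TPM in STZ), oligodendrocyte markers (802 to 2112 and 1045 to 2911 TPM), neuronal markers (35.6 to 54.5 and 41.1 to 63.6 TPM) and red blood cell markers (16.0 to 55.0 and 34.6 to 65.5 TPM) overlapped between the groups. The 7 markers of oligodendrocyte precursors summed to 312 to 406 TPM in vehicle and 269 to 287 TPM in STZ, without overlap. Nearly all of this sum was Olig1 and Olig2, with means of 227 and 80.8 TPM. The precursor markers Pdgfra and Cspg4 were low, with means of 1.85 and 0.912 TPM, and their groups overlapped. Of the 6 precursor markers tested, 2 had a positive log2 fold change (0 called, median -0.33). At an unadjusted p under 0.05 in edgeR, 2 of the 6 were lower in STZ (5.65% of all tested genes) and 0 were higher. The part of other cell types in the differences of the listed genes was not tested. Total read counts were 52529048 to 58749115 per sample, and 3 reads, the limit that a count of 0 allows, corresponded to 0.0511 to 0.0571 CPM, for counting error only. The labels name the samples as replicates, and the study's methods describe them as different pools of mice.

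**Figure D4:**
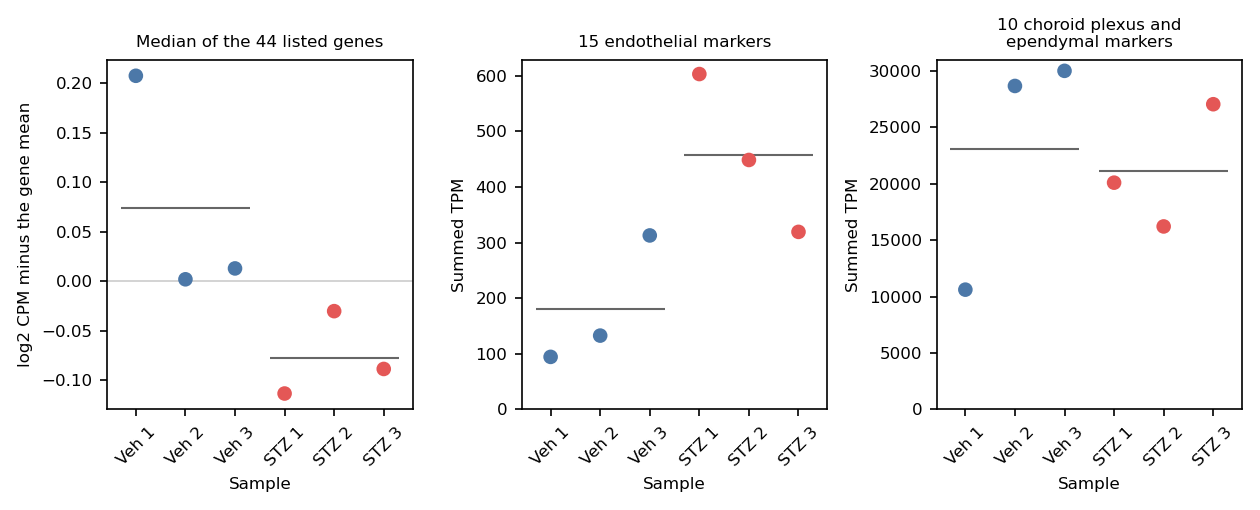
Values per sample (points) with the mean of each group (lines): left, the median deviation of the 44 listed genes in log2 CPM from the mean of the gene; middle and right, the summed TPM of 15 endothelial and of 10 choroid plexus and ependymal markers. The deviation was 0.21 in vehicle sample 1 and between -0.11 and 0.01 in the other 5 samples.

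A further 30 astrocyte genes outside the list included transporters, channels and apolipoproteins, with a median level of 835 TPM. None was called by edgeR. At an unadjusted p under 0.05 in edgeR, 8 had lower and 1 had higher values in STZ. Of all tested genes, 5.65% were lower and 5.63% higher at that p. The median log2 fold change of the 30 genes was -0.11. The most abundant were Apoe, the main apolipoprotein of the brain and the most abundant gene of all at 34346 ± 1704 TPM, Cst3, a protease inhibitor (20979 ± 1117 TPM), and the secreted chaperone Clu (10867 ± 511 TPM). Apoe had a log2 fold change of -0.02 ± 0.14. Among the lower genes were the water channel Aqp4 (-0.48 ± 0.12), the sodium pump subunit Atp1b2 (-0.44 ± 0.12), the deiodinase Dio2 (-0.44 ± 0.15), the GABA carrier Slc6a11 (-0.41 ± 0.14), the bicarbonate carrier Slc4a4 (-0.36 ± 0.12), the membrane protein Mlc1 (-0.29 ± 0.09) and the potassium channel Kcnj10 (-0.29 ± 0.10). The adjusted p-values of those named were 0.280 to 0.389 in edgeR. Sparc, a secreted glycoprotein also made by endothelial cells, was the higher gene (0.44 ± 0.13, adjusted p = 0.326), while Gfap, the filament protein of reactive astrocytes, had a log2 fold change of 0.00 ± 0.15.

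Genes whose symbols resemble the 5 unmatched ones were measured but are not members of the list. Ppp1r3c, a glycogen-targeting subunit of protein phosphatase, had 171, 156 and 162 CPM in vehicle and 114, 127 and 140.3 CPM in STZ (-0.36 ± 0.09, unadjusted p = 0.00459, adjusted p = 0.287 in edgeR). The connexin Gjb6 had 1436, 1210 and 1439 CPM in vehicle and 1641, 1653 and 1639.7 CPM in STZ (0.27 ± 0.10, adjusted p = 0.390). The groups of both did not overlap. Lcat, an enzyme of cholesterol esterification, had a log2 fold change of -0.21 ± 0.08 (adjusted p = 0.412), the thyroxine carrier Slco1c1 of -0.27 ± 0.16 (adjusted p = 0.551) and the metalloproteinase inhibitor Timp4 of 0.11 ± 0.08 (adjusted p = 0.644).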

How the data were processed

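Sorted astrocyte RNA of 3 vehicle and 3 STZ samples was analysed. Per the labels, libraries were made from polyA RNA with a SMART-Seq kit. The submitters' processing notes name Trimmomatic 0.38, HISAT2 2.1.0, SAMtools 1.9 and StringTie 2.1.3b and the genome mm10; the annotation is not given in the sources used here. The authors deposited for each gene a whole-number read count without normalization. They also deposited TPM values, used here for levels, and FPKM values, not used here. A step of the study that removed outlier genes was not repeated.

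The quasi-likelihood test of edgeR 4.0.16 (R 4.3.3) was applied to the 22337 genes with a count above 0 in all 6 samples, with TMM factors and a model of group alone. Whether groups overlapped was read from log2 CPM (prior count 2). Alternatives were DESeq2 1.42.0 and its size factors, no filter, filterByExpr, a robust fit, the replicate block, limma 3.58.1 on log2(TPM + 1) and log2(TPM + 0.1), and each sample left out in turn. The test was also run on counts simulated from the means, library sizes and dispersions of these samples. The outcome of that run is not given here. Tables used Python 3.11.15. No samples were duplicates (chi-square per gene 17.4 to 69.2 between replicates). Values in every sample were to be given for the 11 members with the smallest p-values and Aldh1l1. Those of Rorb, Slc14a1, Slc39a12, Plpp3, Bcan and Fam107a were added after their values were seen. Not every gene of the lists outside the members is reported here by name. Members and lists were chosen with earlier results of these data known.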

Additional observations from a re-analysis of the deposited data

How the results depend on the processing

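No listed gene was called by edgeR, DESeq2 or limma under any alternative run with the fold threshold, and the median log2 fold change of the list stayed negative, between -0.16 and -0.06. Of the 44 genes, 36 kept the sign of their fold change in all 14 alternatives. Listed genes lower in STZ at an unadjusted p under 0.05 numbered 13, and 16 with DESeq2, with no filter, with filterByExpr or with the robust fit, but 6 with limma on log2(TPM + 1), 7 with limma on log2(TPM + 0.1), and 7 to 12 with 1 sample left out; those higher numbered 5, and 3 to 5 with 1 sample left out. Genes called over the whole table numbered 5, but 234 with DESeq2, 10 with the robust fit, 0 with limma on either scale (where 7.32% of genes were higher and 4.47% lower at an unadjusted p under 0.05 with a pseudocount of 1), and 0 to 1 with 1 sample left out. Between 34 and 41 listed genes were in the top 10% by level under the alternatives, against 35, with the 41 from CPM, which is not corrected for length.

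With the replicate number as a block, 7 listed genes were lower at an unadjusted p under 0.05, 5 were higher and 0 genes of the whole table were called (3.95% higher and 4.07% lower at an unadjusted p under 0.05). Deviations of samples with the same number correlated at -0.10, -0.16 and -0.18, and those with unlike numbers at -0.02 to 0.16. The deviations were taken from the mean of each group of 3. This check therefore cannot decide whether samples with the same number shared a batch. The samples came from different mice.

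With 3 pools per group the precision of each fold change is set by the spread between pools and not by depth. Counts of genes under an unadjusted p of 0.05 change with the samples included, and no listed gene's difference passed adjustment over all genes in edgeR.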
